A study of Homo sapiens with 8 samples.

Results

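The genes described here encode the autophagy machinery of human cells, measured in RL, an established B lymphoma cell line. A list of 36 genes, taken by their known function, was matched to the probe sets annotated to a single gene, and all 36 were found among the 19775 genes of the arrays. Each gene was represented by its probe set with the highest mean log2 intensity over the 8 arrays. Of the 36 genes, 34 passed the filter on dim genes, against 11678 of all 19775.

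RL cells carry the genotype t(14,18)+, the translocation by which BCL2 comes under control of the heavy chain locus. All samples came from multicellular aggregates of lymphoma cells (MALC) that had been cultured for 14 days. Cells were then sorted by pyronin Y, an RNA-binding dye. The quiescent group holds 4 samples of cells sorted as Pyronin Y dull, and the cycling group 4 samples sorted as Pyronin Y bright from such aggregates. Both groups share the cell line, its genotype, the culture time and the stain, and no culture other than these aggregates was analysed here. RL is a single cell line, and the labels do not tell whether the 4 samples of a group were cultured apart. The p-values therefore rest on variation among these samples only, and part of that may be technical. A fraction sorted for dim staining has less RNA per cell, and all arrays were set to the same average, so that values are relative to the other transcripts and not amounts per cell.

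Autophagy encloses portions of cytoplasm in a double membrane, the autophagosome, which then fuses with the lysosome. The ULK kinase complex starts the process, a class III PI3 kinase complex marks the membrane with the lipid PI3P, and ATG9A, ATG2 and WIPI proteins bring in lipid and read that mark. Conjugation enzymes related to those of ubiquitin then attach proteins of the ATG8 family to the membrane, ATG4 proteases trim and release them, and cargo receptors bind both cargo and ATG8 proteins. In B cells, autophagy is known for its part in the survival of memory B cells and plasma cells. Much of the pathway is set by phosphorylation, lipidation and protein turnover, which RNA levels do not measure.

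The sort was visible in the arrays. MKI67, the proliferation marker, averaged 362 ± 188 in quiescent and 1900 ± 388 in cycling samples (SD, n = 4 each, intensity units), and TOP2A averaged 540 ± 262 in quiescent and 4783 ± 512 in cycling samples. Of 5 B cell markers, 4 had a probe set of their own, and MS4A1, CD79A, CD79B and PAX5 were bright in both fractions, with summed intensities of 47000 to 58340 on quiescent and 46506 to 56488 on cycling arrays. The 5 T cell markers summed to 207 to 450 on quiescent and 327 to 472 on cycling arrays, the 5 myeloid markers to 182 to 242 on quiescent and 139 to 349 on cycling arrays, and the 5 stromal markers to 343 to 498 on quiescent and 315 to 523 on cycling arrays. Of these 15 markers 4 passed the filter, CD3D, CD3E, COL1A1 and DCN, and none of them was called. Under a mean of 100 in both fractions stayed 3 T cell, 4 myeloid and 3 stromal markers. CD8A, S100A9 and COL3A1 were the dimmest of their lists. RNA quality was read from control probe sets at both ends of ACTB, whose 3′ to 5′ log2 ratio was 2.565 ± 0.18 in quiescent and 2.015 ± 0.20 in cycling samples (SD, n = 4 each, two-sided exact permutation p = 0.0286, the smallest that 70 assignments allow). The GAPDH ratio was 0.11 ± 0.02 in quiescent and -0.05 ± 0.09 in cycling samples (n = 4 each, exact permutation p = 0.0286, adjusted over both ratios 0.0286). These ratios differ between the same groups as every result given here, and their part in them was not tested. Cycling sample 2 lay closest to the other fraction, with a mean correlation of 0.945 to the quiescent arrays, against 0.913 to 0.932 for the other 3 cycling samples. The number of arrays limits the precision.

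The autophagy genes did not move as a block. With the intensities as deposited, 7 of 34 genes rose in quiescent cells, 4 fell and 23 were not called by limma at an adjusted p under 0.05. That is 20.6% higher and 11.8% lower, against a background of 12.2% higher and 15.4% lower over all genes tested. All 4 quiescent arrays lay above all 4 cycling arrays for 7 of the 34, against 13.3% of all genes, and below them for 2, against 15.4%. The median log2 difference, quiescent minus cycling, was 0.16 for the 34 genes and 0.08 for all genes tested, a gap of 0.08. Roles were compared at the probe set used per gene. All 5 ATG8 genes and 4 of 5 genes for lipid supply and PI3P reading lay above the median of all genes. By contrast, 5 of 7 conjugation genes and 4 of 4 ATG4 proteases lay below it. Dimmer probe sets of ATG5, ATG7, ATG10, ATG12 and ATG4B had positive differences, as given further below. These shares were not tested.

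The scaling between arrays changed the sign of small differences. Centring each array on the median of all its probe sets shifts every log2 difference by 0.41 towards lower values, and takes the median of all genes tested to -0.33. With it, 2 of the 34 genes were higher and 9 lower, against 2.8% and 32.5% of all genes. After quantile normalization, 8 were higher and 3 lower, against 10.5% and 16.4%. Called under all 3 scalings were 2 genes higher, ATG2A and GABARAPL1, and 2 lower, ATG3 and ATG4A, against 2.74% and 14.1% of all genes. Differences below are those of the deposited scaling, and calls that another scaling ends are named where they stand. The counts of each role below stand against 12.2% higher and 15.4% lower of all genes as deposited. For the other scalings they stand against the shares given above.

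**Figure D1:**
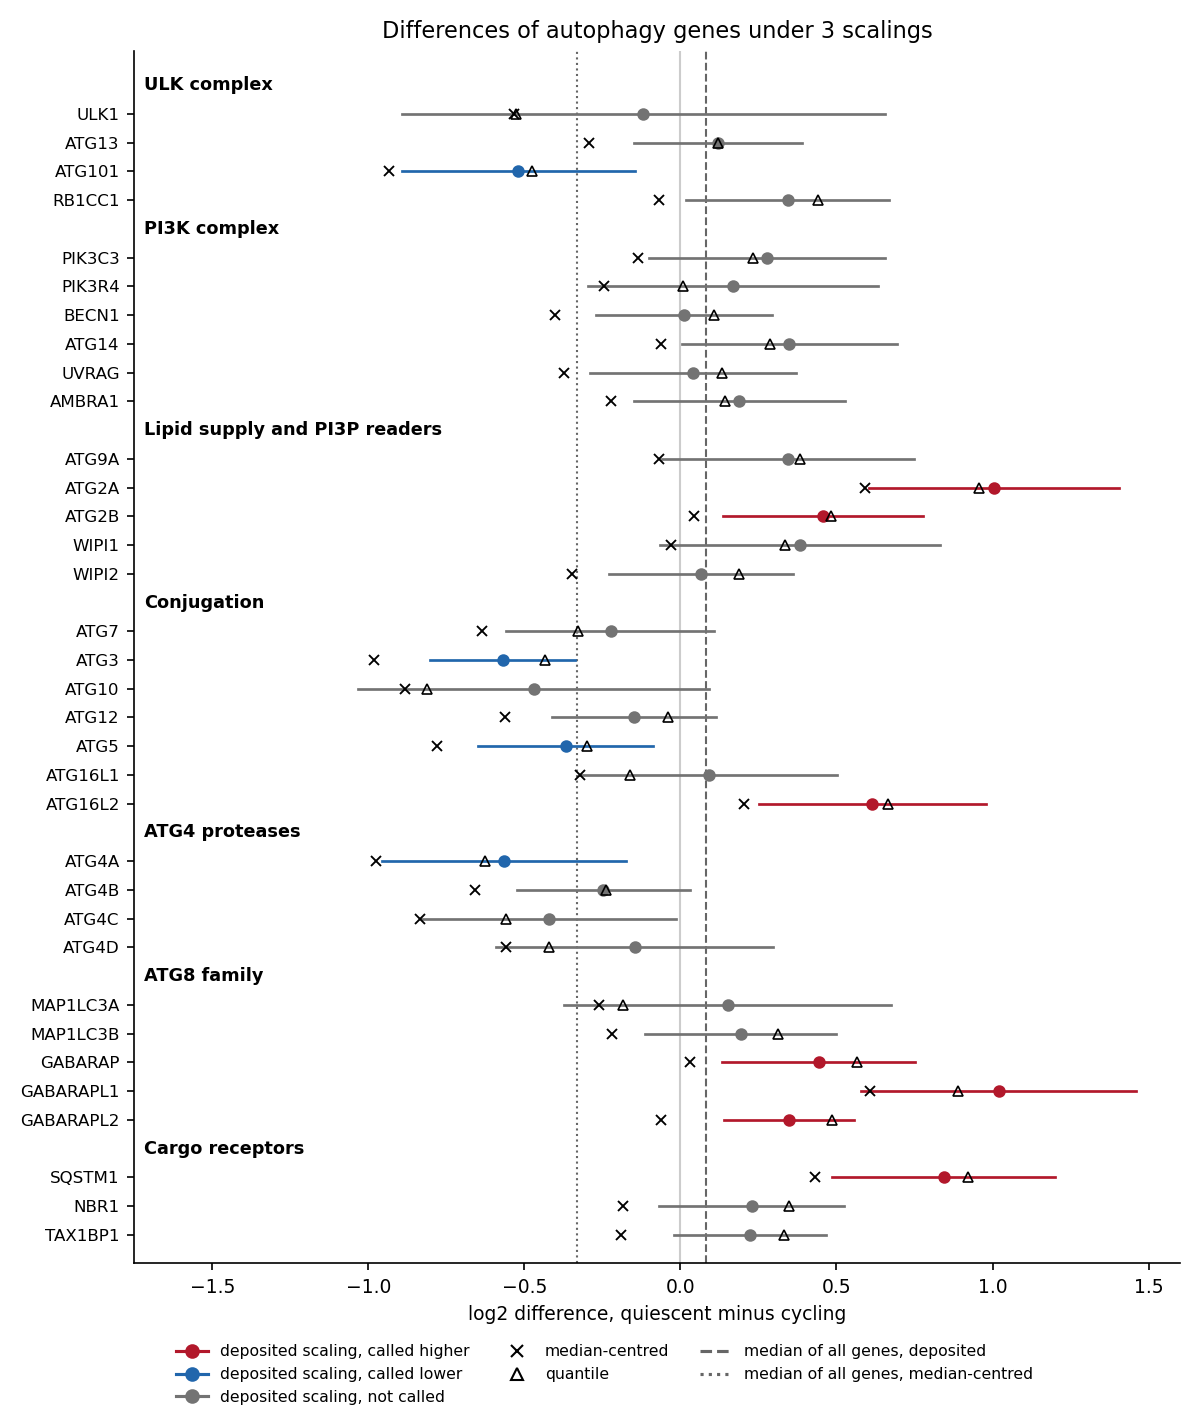
Log2 difference, quiescent minus cycling, of the 34 autophagy genes that passed the filter, by role (circles and bars, deposited scaling with its 95% confidence interval from limma). Crosses and triangles give the same differences after median centring and quantile normalization, and the dashed and dotted lines mark where the median gene lies before (0.08) and after centring (-0.33). ATG2A and GABARAPL1 were called higher and ATG3 and ATG4A lower under all 3 scalings. Other genes, such as SQSTM1 and ATG5, also stayed on one side of 0 but were not called under all 3.

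The promoter sequences of these 4 genes are shown because their calls held under every scaling. They are the 250 bases before the gene start in RefSeq, build GRCh38.p14, 5′ to 3′ on the strand of the gene. ATG2A lies at chr11:64917210-64917459 (minus strand), GABARAPL1 at chr12:10212627-10212876 (plus strand), ATG3 at chr3:112561963-112562212 (minus strand) and ATG4A at chrX:108091528-108091777 (plus strand). Capitals mark matches to the motifs described after the sequences.
ATG2A: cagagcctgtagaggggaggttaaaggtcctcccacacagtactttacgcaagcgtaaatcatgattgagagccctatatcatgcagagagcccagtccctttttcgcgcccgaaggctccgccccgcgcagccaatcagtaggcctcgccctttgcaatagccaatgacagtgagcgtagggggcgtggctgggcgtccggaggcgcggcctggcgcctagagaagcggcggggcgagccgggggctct
GABARAPL1: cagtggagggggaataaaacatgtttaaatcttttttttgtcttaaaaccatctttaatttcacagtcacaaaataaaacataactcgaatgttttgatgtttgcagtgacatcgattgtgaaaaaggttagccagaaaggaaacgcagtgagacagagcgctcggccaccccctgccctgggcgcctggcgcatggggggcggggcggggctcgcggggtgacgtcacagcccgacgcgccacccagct
ATG3: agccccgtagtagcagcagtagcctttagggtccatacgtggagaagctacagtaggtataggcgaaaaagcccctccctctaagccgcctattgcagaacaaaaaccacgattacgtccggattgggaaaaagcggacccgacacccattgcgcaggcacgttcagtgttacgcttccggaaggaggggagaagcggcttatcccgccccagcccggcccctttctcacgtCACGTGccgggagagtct
ATG4A: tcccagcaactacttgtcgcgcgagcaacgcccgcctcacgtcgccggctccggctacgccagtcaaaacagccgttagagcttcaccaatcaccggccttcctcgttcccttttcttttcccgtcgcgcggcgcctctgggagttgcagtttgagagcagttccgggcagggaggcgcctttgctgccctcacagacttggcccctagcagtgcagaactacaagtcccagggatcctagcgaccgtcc

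Of the 36 genes, 32 had promoter windows in the RefSeq table, 40 windows in all. The E-box CACGTG, which reads the same on both strands, was in 2 of the 40, those of ATG3 and ATG14, and in 6.34% of all 35116 windows. In ATG3 it starts 18 bases before the gene start. The longer CLEAR motif bound by TFEB, a palindrome of 10 bases that contains the E-box, was in 0 of the 40 windows and 0.308% of all windows. The FOXO motif GTAAACA, searched on both strands, was in 0 of the 40 and in 2.98% of all windows. A match is a description of the letters and no match says only that they are not in this window.

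Among the genes of the ULK complex, 0 of 4 tested were higher and 1 was lower, against 12.2% and 15.4% of all genes. ULK1, the kinase that starts autophagosome formation, was dim, at 125, 122, 170 and 72.2 in quiescent samples 1 to 4, against 143, 165, 138 and 79.6 in cycling samples 1 to 4. The fractions overlapped and the log2 difference was -0.12 (95% interval -0.89 to 0.65, limma adjusted p = 0.833). ULK2, the related kinase, did not pass the filter, with 35.5 to 80.1 in quiescent and 6.0 to 49.5 in cycling samples. Genes under the filter had a median log2 difference of 0.37 over the whole array, and for ULK2 no test was made. ATG101, which stabilises ATG13 in the complex, fell to a mean of 1526 ± 387 in quiescent samples, against 2160 ± 306 in cycling samples (log2 difference -0.52, limma adjusted p = 0.0394). Quiescent sample 1, at 2106, lay among the cycling samples, the other quiescent samples ran from 1310 to 1349, and the call did not hold after quantile normalization (adjusted p = 0.0637). With 1 array left out, ATG101 passed without quiescent sample 1 or cycling sample 2 and not without any of the other 6 (adjusted p 0.00412 to 0.108). ATG13 and RB1CC1, the scaffold also called FIP200, were not called, with log2 differences of 0.12 and 0.34. RB1CC1 passed without cycling sample 2 (0.45, adjusted p = 0.0392) or quiescent sample 1 (0.43, adjusted p = 0.0498).

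Of the 6 genes of the PI3 kinase complex, 0 were called by limma as deposited, centred or after quantile normalization, and 1, ATG14, had an unadjusted p under 0.05. BECN1, the subunit that BCL2 can bind, was measured at 4504, 3887, 3504 and 4103 in quiescent samples, against 3796, 4285, 4452 and 3377 in cycling samples. The fractions overlapped, the log2 difference was 0.01 (95% interval -0.27 to 0.29, limma adjusted p = 0.962), and centred it was -0.40 (adjusted p = 0.0789). The catalytic subunit PIK3C3 had a log2 difference of 0.28, the regulatory subunit PIK3R4 of 0.17, UVRAG of 0.04 and AMBRA1 of 0.19. ATG14, which directs the complex to autophagosome formation, ran from 822.0 to 924 in quiescent and from 523 to 757 in cycling samples. The fractions did not overlap for ATG14, and its difference of 0.35 did not pass (unadjusted p = 0.0473, adjusted p = 0.121).

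The lipid transfer protein ATG2A, which carries lipid into the growing membrane, rose about 2.01-fold. It measured 1049.9, 983, 1099 and 1486 in quiescent samples, against 466, 515, 727 and 596 in cycling samples. Every quiescent array lay above every cycling array. The mean log2 difference was 1.005 (SE 0.185, adjusted p = 0.00161 by limma), and it stayed called without any 1 of the 8 arrays (adjusted p 0.00202 to 0.00683). Arrays were left out on the deposited scaling only. Centred, the difference of ATG2A was 0.592 and near the threshold (limma adjusted p = 0.042), and the gene had 1 probe set. Its paralog ATG2B rose to 1777 ± 184 in quiescent samples, against 1302 ± 210 in cycling samples (log2 difference 0.46, adjusted p = 0.0361). Its centred difference was 0.04 and did not pass (adjusted p = 0.88), and with 1 array left out it passed without quiescent sample 1, cycling sample 2 or cycling sample 4 (adjusted p 0.0287 to 0.0988). ATG9A, the membrane scramblase of the pathway, had a log2 difference of 0.345 and WIPI1 of 0.38, neither called. WIPI2, the PI3P reader that recruits ATG16L1, had 0.065 at its brightest probe set and was not called, and passed with its probe sets averaged (0.50, adjusted p = 0.00731).

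Among the 7 conjugation genes ATG3 and ATG5 fell and ATG16L2 rose. ATG3, the E2-like enzyme that passes ATG8 proteins to lipid, measured 7649, 9676, 9751 and 8501 in quiescent samples, against 13087, 13043, 12251 and 14235 in cycling samples. The ranges were apart, the log2 difference was -0.57 (SE 0.11, limma adjusted p = 0.0019), and the call held without any 1 of the 8 arrays (adjusted p 0.00221 to 0.00994). A second, dimmer probe set of ATG3 gave -0.135 (adjusted p = 0.828), and the average of both did not pass (adjusted p = 0.204). ATG5, which is joined to ATG12, fell to 2747 ± 356 in quiescent samples, against 3535 ± 308 in cycling samples. The fractions of ATG5 did not overlap, but its log2 difference of -0.37 was at the edge of the threshold (adjusted p = 0.0499). It did not pass after quantile normalization (-0.30, adjusted p = 0.105), and with 1 array left out it passed only without quiescent sample 2 (adjusted p 0.0201 to 0.145). With its 3 probe sets averaged, the difference of ATG5 was -0.091 (adjusted p = 0.666). ATG7, the E1-like enzyme, had -0.22, ATG10, the E2-like enzyme for ATG12, -0.47, and ATG12 -0.15, all not called as deposited and all called lower in the centred values (adjusted p = 0.0187, 0.0159 and 0.0119). ATG10 was also called lower after quantile normalization (-0.81, adjusted p = 0.0286).

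Of the ATG16L paralogs 1 was called. ATG16L2 rose to 2874 ± 680 in quiescent samples, against 1846 ± 206 in cycling samples, and 4 of 4 quiescent arrays lay above all cycling arrays (log2 difference 0.615, SE 0.17, limma adjusted p = 0.0159). In the centred values its difference was 0.20 and did not pass (adjusted p = 0.484). ATG16L1, the subunit that sets where ATG8 proteins are attached, averaged 307 ± 24.8 in quiescent and 290 ± 39.9 in cycling samples and was not called, with 0.09 as deposited and -0.16 after quantile normalization. Whether the paralogs differ from each other was not tested.

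The ATG4 proteases were all on the lower side at the probe set used. As deposited 1 of 4 was called lower, where 15.4% of all genes were. ATG4A measured 546, 855, 509 and 678 in quiescent samples, against 828, 927, 1015 and 987 in cycling samples. Quiescent sample 2 lay within the range of the cycling samples, and the log2 difference was -0.56 (SE 0.18, limma adjusted p = 0.0342). It was called under all 3 scalings, but with 1 array left out it passed only without quiescent sample 2 or cycling sample 1 (adjusted p 0.00888 to 0.108). ATG4B, ATG4C and ATG4D had log2 differences of -0.25, -0.42 and -0.15, and ATG4B and ATG4C were called lower in the centred values (adjusted p = 0.00573 and 0.00906). ATG4C also passed without cycling sample 2 (-0.55, adjusted p = 0.039).

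**Figure D2:**
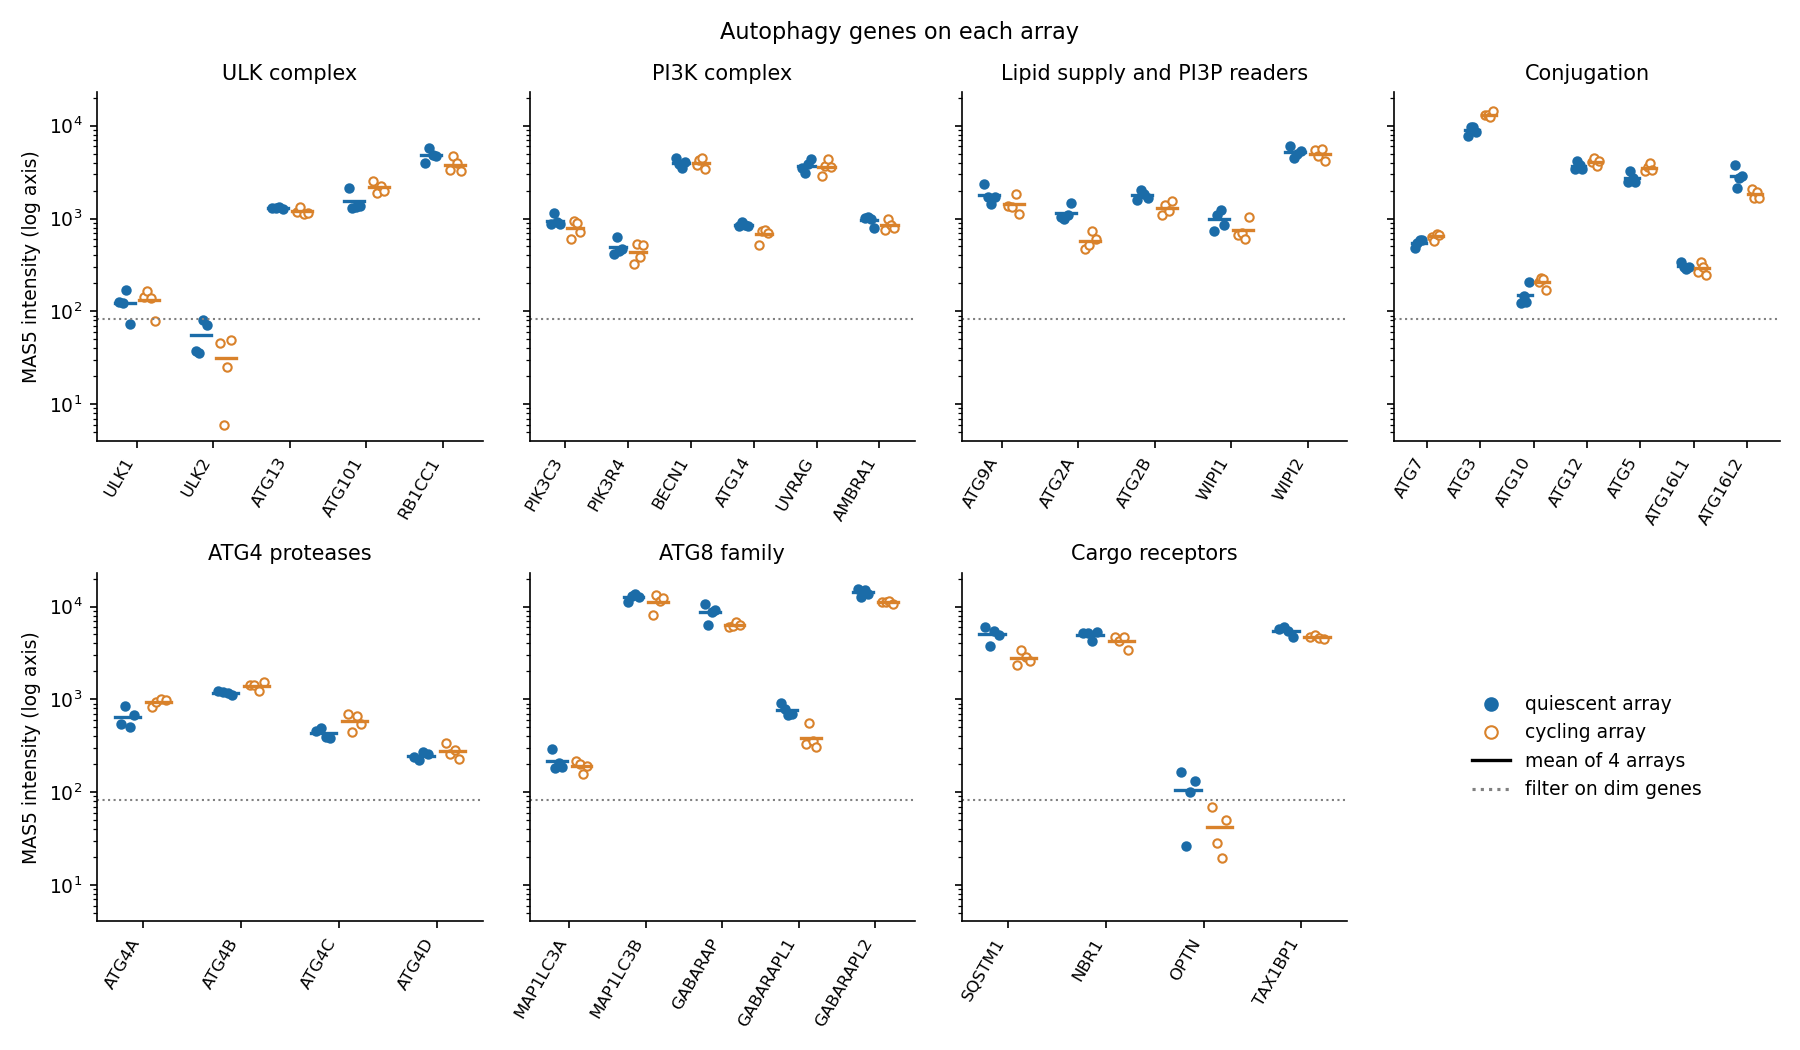
MAS5 intensity of each of the 36 autophagy genes on each array, by role, on a log axis, with quiescent arrays as filled points left of cycling arrays as open points and the mean of 4 as a bar. The dotted line is the filter at an intensity of 83.3, under which ULK2 and OPTN fell by their mean log2 value. ATG2A, ATG2B, ATG14, ATG16L2, GABARAPL1, GABARAPL2 and SQSTM1 show quiescent points all above the cycling ones.

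In the ATG8 family 3 of 5 genes rose, GABARAPL1, GABARAP and GABARAPL2, where 12.2% of all genes did. In the centred values 1 of 5, GABARAPL1, was higher, where 2.8% of all genes were. GABARAPL1, which attaches to autophagosome membranes like its relatives, measured 909, 789, 678 and 702 in quiescent samples, against 334, 549.9, 357 and 308 in cycling samples. All quiescent arrays lay above all cycling arrays, and the highest cycling value was that of sample 2. The log2 difference was 1.02 (95% interval 0.58 to 1.46, 2.03-fold, limma adjusted p = 0.00261), and it passed without any 1 of the 8 arrays (adjusted p 5.19e-04 to 0.011). A further probe set, annotated to both GABARAPL1 and its copy GABARAPL3, was not used, and how far the probe sets used also read that copy was not tested.

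GABARAP and GABARAPL2, also called GATE-16, rose as deposited but not in the centred values. GABARAP measured 10723, 6399, 8775 and 9133 in quiescent samples, against 6043, 6177, 6845 and 6301 in cycling samples. Quiescent sample 2 lay within the cycling range, the log2 difference was 0.44 (limma adjusted p = 0.0355), and the centred difference was 0.03 (adjusted p = 0.922). With 1 array left out GABARAP passed only without quiescent sample 2 (adjusted p 0.00314 to 0.091). GABARAPL2 measured 15563, 12672, 14901 and 13667 in quiescent samples, against 11053, 11248, 11421 and 10768 in cycling samples. Its fractions did not overlap (log2 difference 0.35, SE 0.10, adjusted p = 0.0165), it did not pass without quiescent sample 3 or cycling sample 4 (adjusted p up to 0.058), and centred its difference turned to -0.064 (adjusted p = 0.794).

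The LC3 genes were not called. MAP1LC3B, the most used marker of autophagosomes, measured 11323, 13103, 13795 and 12717 in quiescent samples, against 8116, 13192, 11549.9 and 12301 in cycling samples. Cycling sample 1 was low and the other 3 cycling samples lay within the quiescent range, with a log2 difference of 0.19 (95% interval -0.11 to 0.50, limma adjusted p = 0.332). A near-identical gene, MAP1LC3B2, exists, and signal from it cannot be told apart here. MAP1LC3A was dim, at 289, 180, 207 and 185 in quiescent samples, against 216, 203, 157 and 189 in cycling samples, and was not called (0.15 as deposited, -0.18 after quantile normalization).

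Of the cargo receptors, SQSTM1 rose. SQSTM1, or p62, which binds ubiquitin-tagged cargo and is itself degraded by autophagy, measured 6089.7, 3776, 5446 and 4941 in quiescent samples, against 2329, 3423, 2889 and 2593 in cycling samples. The fractions did not overlap, the log2 difference was 0.84 (SE 0.165, 1.79-fold, limma adjusted p = 0.00234), and it passed without any 1 of the 8 arrays (adjusted p 8.78e-04 to 0.0104). In the centred values the difference was 0.43 and did not pass (adjusted p = 0.0827). NBR1, a receptor related to SQSTM1, measured 5238, 5129, 4255 and 5297 in quiescent samples, against 4729, 4273, 4744 and 3362 in cycling samples, and was not called (0.23, adjusted p = 0.239). TAX1BP1, which also binds ubiquitin, measured 5748, 5966, 5455 and 4705 in quiescent samples, against 4708, 4909, 4599.9 and 4479.5 in cycling samples. Quiescent sample 4 alone lay among the cycling samples, and the difference of 0.22 passed after quantile normalization (0.33, adjusted p = 0.044) and not as deposited (adjusted p = 0.163). OPTN, a receptor known from the removal of bacteria and mitochondria, did not pass the filter, with 164, 26.4, 101 and 133.5 in quiescent samples, against 70, 28.5, 19.3 and 50.6 in cycling samples. The fractions overlapped, and no test was made.

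Further probe sets of the same genes gave a second reading. The 36 genes had 93 probe sets of their own, and 76 passed the filter. Of 42 further tested probe sets, which belonged to 21 genes, 5 were called higher and 0 lower by limma, adjusted over all 22259 probe sets tested, against 14.3% and 12% of all, and 8 differed in sign from the probe set used. All 8 were positive and belonged to conjugation genes and an ATG4 protease. They were those of ATG7 (0.068 and 0.257), ATG10 (0.112 and 0.447), ATG12 (0.333 and 0.127), ATG5 (0.41) and ATG4B (0.342), and none was called. For GABARAPL1 the dimmer probe set gave a log2 difference of 1.302 (adjusted p = 0.00178). For ATG16L2 it gave 1.77, with 2522 ± 402 in quiescent and 746 ± 155 in cycling samples (adjusted p = 2.69e-05), beside 0.615 at the probe set used. BECN1 and WIPI2, not called at their brightest probe sets, each had a dimmer one called higher, at 0.94 (adjusted p = 0.0211) and 1.49 (adjusted p = 0.00405). Both dimmer probe sets averaged under 500 (471 ± 101 in quiescent and 256 ± 111 in cycling samples for BECN1, 321 ± 76.1 in quiescent and 118 ± 39.8 in cycling samples for WIPI2). A dimmer ATG2B probe set was called as well (0.62, adjusted p = 0.0452). The 2 LC3B probe sets gave 0.19 and 0.20. The second ATG5 probe set gave -0.32 (adjusted p = 0.0967) and the third, dimmer one 0.41 (adjusted p = 0.397). Adjusted over all probe sets, the ATG5 probe set used did not pass (limma adjusted p = 0.0526). For SQSTM1 the 4 further probe sets had log2 differences of 0.22 to 0.68 and none was called.

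**Figure D3:**
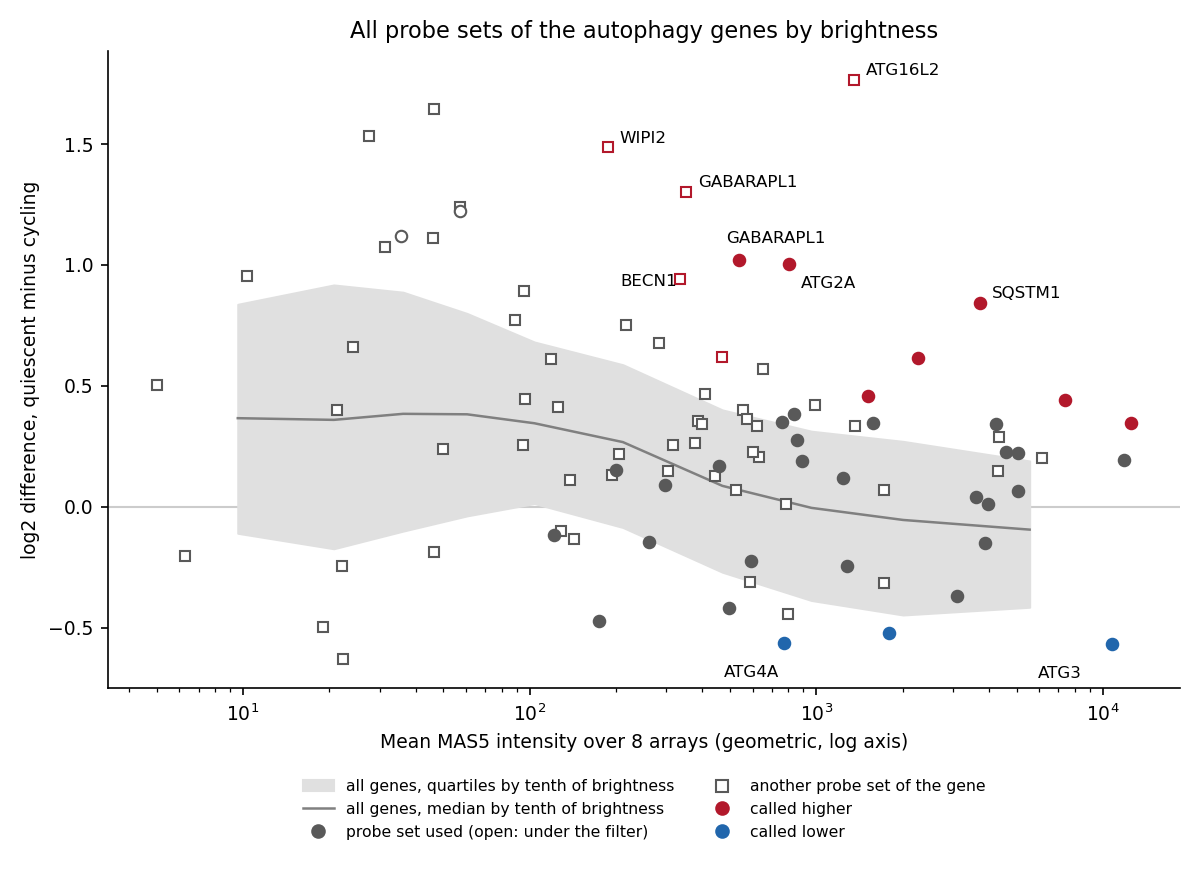
Log2 difference, quiescent minus cycling, of all 93 probe sets of the autophagy genes against mean intensity on a log axis, with the probe set used per gene as circles and the others as squares, coloured by the call adjusted over all probe sets. The grey line and band give the median and quartiles over all genes in 10 classes of brightness with equal numbers of genes. The median runs from 0.37 in the dimmest class to -0.095 in the brightest. SQSTM1, GABARAP and GABARAPL2 lie above the upper quartile of bright genes, as do others such as ATG16L2, ATG2B and RB1CC1.

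Brightness itself moved with the difference. Over all genes, the median log2 difference in 10 classes of brightness was 0.37 in the dimmest, 0.345 in the fifth, and -0.095 in the brightest. Of the called genes, GABARAPL2, GABARAP, ATG3 and SQSTM1 lay at the 97.3, 94.1, 96.6 and 86.2 percentiles of mean brightness among the genes tested, and GABARAPL1 and ATG2A at 43.7 and 53.3. Its part in the differences was not tested.

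Other genes of the pathway were taken from 6 lists with 92 genes, of which 85 were tested. Of these 12 rose and 5 fell, or 14.1% and 5.88%, against 12.2% and 15.4% of all genes. In the centred values 2 rose and 27 fell, against 2.8% and 32.5% of all genes. After quantile normalization 13 rose and 5 fell, against 10.5% and 16.4% of all genes. The counts of each list below stand against these same shares. Their median log2 difference was 0.076, against 0.081 for all genes.

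Of 22 tested genes of mTORC1 and its inputs, 3 rose and 2 fell. RRAGD, a Rag GTPase that recruits mTORC1 to the lysosome, rose to 1465 ± 239 in quiescent samples, against 654 ± 139 in cycling samples (log2 difference 1.17, limma adjusted p = 5.47e-04). DEPTOR, which binds and restrains mTOR, fell to 4515 ± 1021 in quiescent samples, against 9796 ± 2018 in cycling samples (-1.12, adjusted p = 4.97e-04), and did not pass when its probe sets were averaged (adjusted p = 0.36). TBC1D7, a subunit of the TSC complex, also fell (-0.92), and SESN3, a sestrin, rose (0.70, with 0.29 centred and not called). MTOR itself was dim at 168 ± 43.0 in quiescent and 218 ± 62.4 in cycling samples and was not called (-0.37, adjusted p = 0.335). It was called lower centred (adjusted p = 0.0283), and its difference was 0.41 with probe sets averaged. DDIT4, which inhibits mTORC1, averaged 26669 ± 3077 in quiescent and 23756 ± 1059 in cycling samples and was not called (0.16). Of 6 tested genes of AMPK and its upstream kinase, limma called 0 as deposited, with 0 at an unadjusted p under 0.05. In the centred values 4 were lower, where 32.5% of all genes were, and after quantile normalization 1 was lower, where 16.4% were.

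Of 10 transcription factors linked to autophagy genes, 2 rose and 0 fell. FOXO3, which activates autophagy genes in mouse muscle, rose to 3293 ± 723 in quiescent samples, against 2153 ± 599 in cycling samples (0.63, limma adjusted p = 0.037). The fractions overlapped, its centred difference was 0.21 and did not pass (adjusted p = 0.442), and with 1 array left out it passed without quiescent sample 1 or cycling sample 2 only (adjusted p 0.00933 to 0.101). ZKSCAN3, a repressor of autophagy genes, also rose (0.57, adjusted p = 0.0483), did not pass centred (adjusted p = 0.627) or after quantile normalization (adjusted p = 0.26), and with 1 array left out passed only without cycling sample 4. TFEB, the activator of lysosome and autophagy genes, averaged 627 ± 87.5 in quiescent and 832 ± 113 in cycling samples and was not called (-0.41, adjusted p = 0.0872), whereas it was called lower centred and after quantile normalization (adjusted p = 0.00328 and 0.0466) and without cycling sample 1 (adjusted p = 0.0475).

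Among 15 other core and accessory factors, 4 rose and 1 fell. TP53INP1, a p53 target that binds ATG8 proteins, rose to 11139 ± 1320 in quiescent samples, against 4198 ± 1291 in cycling samples (log2 difference 1.46, 2.75-fold, limma adjusted p = 2.31e-04). TMEM41B, a scramblase, EPG5, a tether of autophagosomes to lysosomes, and MTMR3, a PI3P phosphatase, rose by 0.53, 0.85 and 0.73, and none of these 3 passed in the centred values (0.12, 0.44 and 0.32).

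Of 16 other cargo and organelle receptors, 2 rose and 1 fell. BNIP3L, or NIX, the mitophagy receptor, rose to 14217 ± 1928 in quiescent samples, against 8761 ± 271 in cycling samples (0.69, limma adjusted p = 6.00e-04, with 0.28 centred and not called). BNIP3, the related receptor, was not called as deposited (0.25, adjusted p = 0.0766), and was called after quantile normalization (0.32, adjusted p = 0.0181). CALCOCO1 rose (0.90, adjusted p = 0.00541, and 0.49 centred, adjusted p = 0.0783), while CALCOCO2, or NDP52, was not called (0.25) and passed with probe sets averaged (0.77, adjusted p = 0.0283). PHB2, a mitochondrial inner membrane protein, fell by 0.29 on the log2 scale (adjusted p = 0.037). With 1 array left out, PHB2 passed only without quiescent sample 1 or cycling sample 2 (adjusted p 0.0071 to 0.103).

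Of 16 genes for fusion with the lysosome, 1 rose and 1 fell. VAMP8, the lysosomal SNARE, fell to 5679 ± 2154 in quiescent samples, against 10735 ± 3775 in cycling samples (-0.93, limma adjusted p = 0.0356), with overlapping fractions and no call after quantile normalization (adjusted p = 0.0523). It did not pass without quiescent sample 2 or 3 or cycling sample 1 or 3 (adjusted p up to 0.099). STX7, another SNARE, rose by 0.39, with -0.03 centred, and with 1 array left out passed only without quiescent sample 1 or cycling sample 3 (adjusted p up to 0.0774). LAMP2, a lysosomal membrane protein, was not called (0.10).

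**Figure D4:**
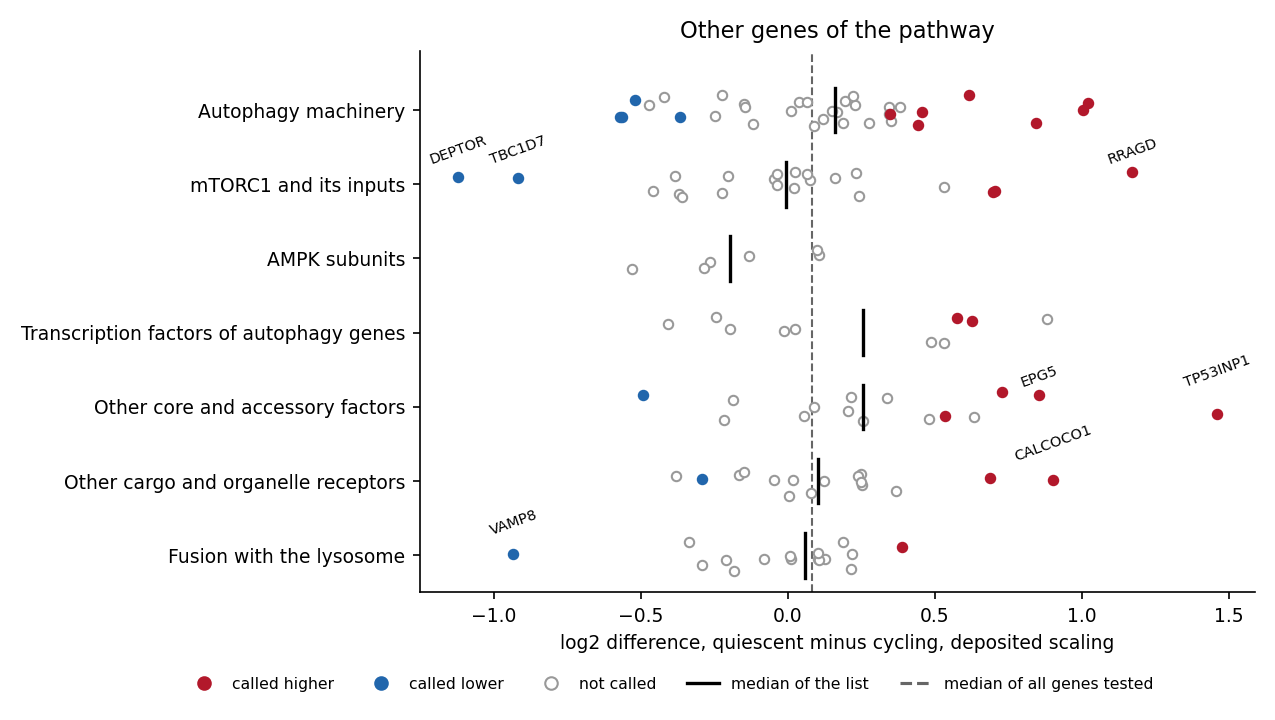
Log2 difference, quiescent minus cycling, as deposited, of each tested gene of the autophagy machinery and of the 6 pathway lists, with called genes filled, the list's median as a bar and the median of all genes tested as a dashed line. Named are called pathway genes with a difference over 0.8 in size. TP53INP1 (1.46), RRAGD (1.17) and DEPTOR (-1.12) have the largest differences of the genes shown.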

How the data were processed

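RNA of 4 quiescent and 4 cycling samples was measured on 1-colour arrays. Per the submitters' processing notes the authors used MAS5, and the deposited values are intensities on a linear scale, scaled by the authors so that each array's mean after trimming 2% at each end was 500.1. Here intensities under 1 were set to 1 and log2 was taken. Array medians ran from 103.6 to 113.8 in quiescent and from 72.2 to 98.1 in cycling samples. Probe sets with 1 gene symbol in the platform annotation were kept (41091), and genes were tested where the mean log2 reached the median of all probe sets (intensity 83.3).

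Quiescent minus cycling was fitted with limma 3.58.1 (trend and robust eBayes) in R 4.3.3, with Benjamini-Hochberg adjustment over all 11678 genes and a threshold of 0.05. The fit was tested on simulated data. Median-centred and quantile-normalized arrays stand beside it, and other filters, an offset of 32, averaged probe sets and left-out arrays were tried. Centring on the genes tested was chosen after seeing the data. The members and lists were chosen with earlier results of these data known. Values in every array are given for autophagy machinery genes called under all 3 scalings, the ATG8 family, the cargo receptors, ULK1 and BECN1. Of each pathway list up to 4 called genes with the smallest p are named, and TFEB, FOXO3, MTOR, DDIT4, BNIP3, BNIP3L, CALCOCO2 and LAMP2 whatever their result. Sample numbers were not taken as pairs.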

Additional observations from a re-analysis of the deposited data

Results flagged for a closer look

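Each group here held the 4 arrays of 1 fraction for 1 gene, and pathway genes not named above were left out. A sample stood apart from the other 3 of its group by Dixon's ratio of gap to range over its 95% critical value in 8 of 118 groups, where chance gives about 1 in 20. Among the autophagy machinery these were quiescent sample 1 for ATG101 (ratio 0.938, at 2105.8), quiescent sample 2 for PIK3C3 (0.833, at 1142.1), quiescent sample 4 for AMBRA1 (0.842, at 784.3) and quiescent sample 3 for NBR1 (0.853, at 4255.4). Among the other pathway genes they were quiescent sample 1 for ZKSCAN3 (0.983, at 434.1), cycling sample 1 for SESN3 (0.886, at 728.7), and for MTOR quiescent sample 2 (0.891, at 232.1) and cycling sample 2 (0.928, at 311.4).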

How the results depend on the processing

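Centring on the array median gave 327 genes higher and 3795 lower of all, 2 and 9 of the autophagy machinery and 2 and 27 of the pathway lists. It turned ATG13 (-0.29), RB1CC1 (-0.07), PIK3C3 (-0.135), PIK3R4 (-0.245), BECN1 (-0.40), ATG14 (-0.064), UVRAG (-0.37), AMBRA1 (-0.22), ATG9A (-0.068), WIPI1 (-0.031), WIPI2 (-0.35), ATG16L1 (-0.32), MAP1LC3A (-0.26), MAP1LC3B (-0.22), GABARAPL2 (-0.064), NBR1 (-0.185), TAX1BP1 (-0.19), STX7 (-0.025), DDIT4 (-0.25), BNIP3 (-0.16), CALCOCO2 (-0.16) and LAMP2 (-0.31), by a shift of every difference of 0.41. Quantile normalization turned ATG16L1 (-0.16) and MAP1LC3A (-0.18). Averaging all probe sets turned ATG12 (0.10) and MTOR (0.41), ended the calls of ATG3 (adjusted p = 0.204), ATG5 (0.666), DEPTOR (0.36), SESN3 (0.0692), FOXO3 (0.108), ZKSCAN3 (0.102) and STX7 (0.277), added those of WIPI2 (0.00731) and CALCOCO2 (0.0283), and left 2 of the autophagy machinery and 3 pathway genes lower. With averaged probe sets, 1328 of all 10227 genes tested were lower. Without trend and robust eBayes, 4 of the autophagy machinery were higher and 1 lower, and 2 pathway genes lower. Of all 11678 genes, 1300 were higher and 1561 lower in that fit. Then ATG101, ATG2B, ATG5, ATG4A, GABARAP, GABARAPL2, FOXO3, PHB2, STX7 and VAMP8 did not pass (adjusted p 0.0508 to 0.126). With no filter 1 of the autophagy machinery and 3 pathway genes were lower, against 1609 of all 19775 genes. ATG101, ATG2B, ATG5, ATG4A, GABARAP, FOXO3, ZKSCAN3 and PHB2 did not pass with no filter (0.0563 to 0.0816). With centring on the genes tested, chosen after seeing the data, 2 of the autophagy machinery were lower, against 1704 of all 11678 genes. ATG101, ATG5 and PHB2 did not pass with it (0.0517 to 0.0661). The median difference of the autophagy machinery minus that of all genes was 0.079 as reported, -0.00023 with no filter, 0.22 with the 75th percentile filter, 0.18 after quantile normalization and 0.13 with averaged probe sets. The cause was not tested. With 1 array left out, 945 (without quiescent sample 3) to 1697 of all genes were higher and 1419 to 1900 lower, 4 (without quiescent sample 3) to 7 of the autophagy machinery higher and 1 to 3 lower, 8 to 13 pathway genes higher and 2 to 8 lower, and the median gap was 0.054 to 0.11. ULK1 then ran from -0.34 to 0.11, BECN1 from -0.066 to 0.072, UVRAG from -0.072 to 0.13 and WIPI2 from -0.017 to 0.14.

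With the sample number as a replicate block in limma, 2002 of all genes were higher and 2232 lower, against 1430 and 1802 without it. Then 8 pathway genes were lower, 8 and 4 of the autophagy machinery higher and lower, and RB1CC1 passed (adjusted p = 0.0181). The deviations of same-numbered samples correlated at 0.344, 0.196, 0.110 and 0.036, all positive. Another number was the best match for 3 of 8 samples, and their own number for the rest. The labels do not tell whether same-numbered samples belong together, and the numbers were not taken as pairs. The number of arrays and the dimness of ULK2 and OPTN limit what can be told.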
